A study of Arabidopsis thaliana with 4 samples.

Results

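The transcripts described here were those whose level in the array of a CESTA enhancer-trap line stood at least 1 unit on the log2 scale above each of the other 3 arrays of the series. Members were chosen by these measured signals among 13648 probe sets that passed a filter on signal, out of 22746 probe sets not used as array controls. The rule was met by 65 probe sets, and 6 of these were set aside because they belong to groups not described here: CES itself, COR15A, 1 glucosyltransferase with a UGT symbol and 3 probe sets of a stretch of chromosome 4. The remaining 59 probe sets are the members, 0.432% of those that passed the filter. The annotation gives 1 gene for 31 of them, several genes for 3 and no entry for 25.

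RNA came from whole Arabidopsis thaliana seedlings, 14 days old, and each sample was hybridised to 1 single-colour ATH1 array. Seeds spent 2 days at 4 °C, and plants then grew upright on sucrose-containing agar at 24 °C with 16 h of light and 8 h of dark. All lines carry the Col-0 background by their labels: Columbia-0 wild type (1 array), a T-DNA insertion line called the cesta knockout (2 arrays) and the cesta enhancer-trap line (1 array), which carries a gene knockout tag in its labels too. The labels do not give the place or number of insertions or whether plants were pooled, so the lone enhancer-trap array stands for 1 line. CES read 4124 in that array, 0.533 in wild type and 7.29 and 5.35 in the knockout arrays, and all values but the first lie below 10.6, the top signal among probe sets for Bacillus genes, which have no target in the plant and are taken as background here. The tag of a gene knockout is therefore not borne out by the CES signal in the array labelled enhancer trap.

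CESTA is a transcription factor of the basic helix-loop-helix class that acts in the response to brassinosteroids, plant steroid hormones that promote cell elongation. In an enhancer-trap line a transgene with a reporter lands at random in the genome, and enhancers near or inside the insertion can act on adjacent genes. Growing plant cells loosen and restiffen their walls with secreted enzymes. Pectin methylesterases and their inhibitors set the charge of pectin, class III peroxidases cross-link or loosen wall polymers, and lipid-transfer-type proteins and lipases of the GDSL class act on surface and wall lipids.

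The rule itself fixed that the members are high in the enhancer-trap array, so their size there is given as a description with no test. The margin, meaning the log2(signal + 1) value in the enhancer-trap array minus the highest of the other 3 arrays, ranged from 1.00 to 2.77 with a median of 1.19. It was at least 1.5 for 17 members and at least 2 for 10, while 21 members lay under 1.1. Over all probe sets that passed the filter the median margin was -0.14. In signal, the enhancer-trap array stood 2.00-fold to 7.02-fold above the highest other array. The median signal of the members was 53.3 in wild type, 54.8 and 53.0 in the knockout arrays and 152 in the enhancer-trap array. The share of all probe sets past the filter that met the margin was 0.476%.

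**Figure D1:**
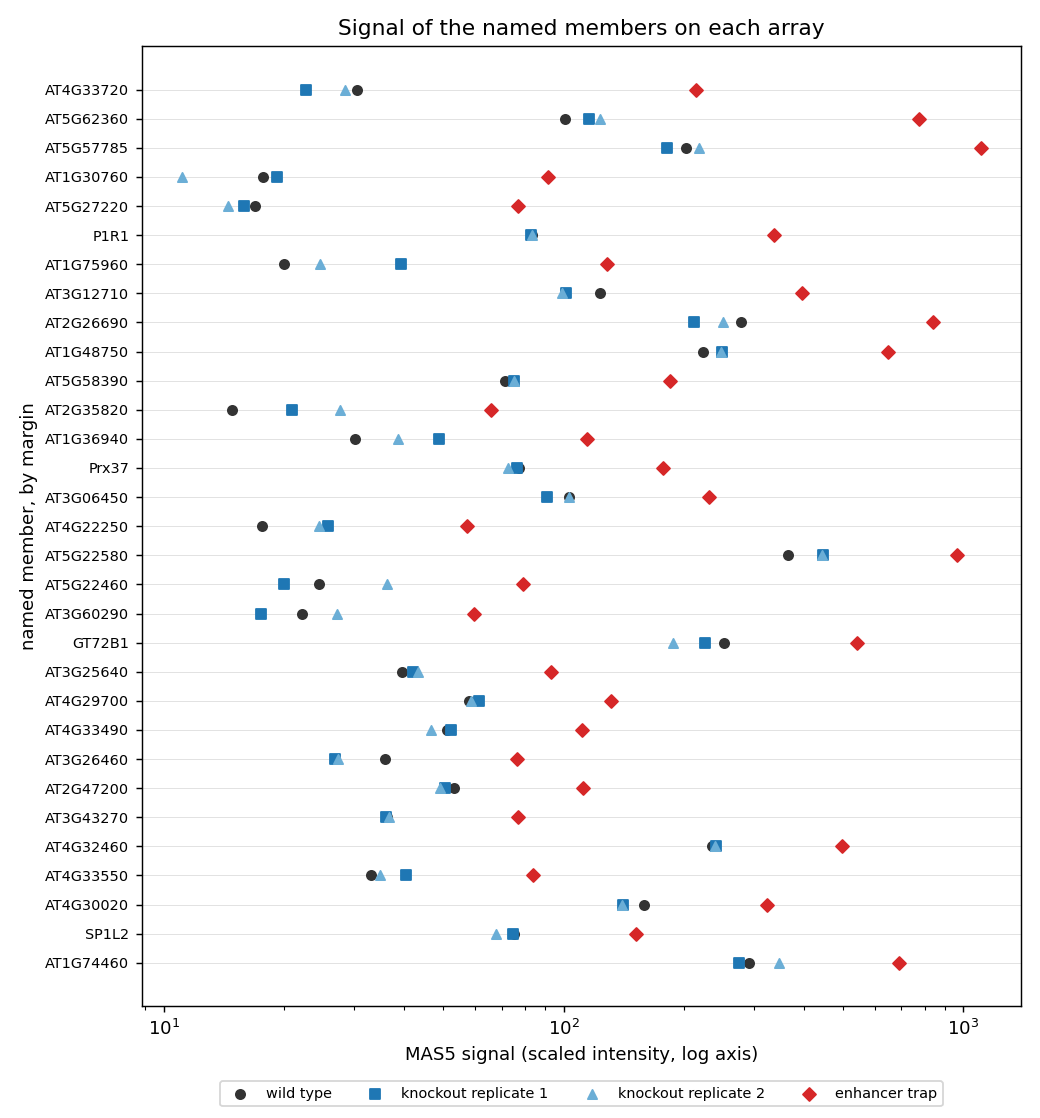
MAS5 signal (log axis) of the 31 members with 1 annotated gene on each of the 4 arrays, sorted by margin with the largest at the top. In every row the enhancer-trap value lies to the right of the other 3 arrays, from 7.02-fold for AT4G33720 to 2.00-fold for AT1G74460, as the rule requires.

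Of the 31 named members, 9 encode proteins that act at the cell wall or in the space outside the cell. This grouping, like the others below, was made from known gene roles after the members had been listed. The share of such genes among all probe sets past the filter was not counted, so no count by role can be read as an excess. The margins of the 9 ranged from 1.01 to 2.77, with a median of 1.19. AT4G33720, of the CAP family that includes pathogenesis-related protein 1, read 30.5 in wild type, 22.8 and 28.5 in the knockout arrays and 214 in the enhancer-trap array. It had the largest margin of all 59 members, and its other 3 values lay within 0.41 of each other on the log2 scale.

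The second largest margin was that of AT5G62360, whose product resembles pectin methylesterase inhibitors. AT5G62360 read 101 in wild type, 116 and 123 in the knockout arrays and 772 in the enhancer-trap array, a margin of 2.64 against a range of 0.28 among the other 3 arrays. AT3G43270, which belongs to the pectin methylesterases that the inhibitors act on, read 36.3 in wild type, 36.0 and 36.7 in the knockout arrays and 76.8 in the enhancer-trap array. The 3 other arrays differed by 0.028 on the log2 scale for this gene, while the margin was 1.05. In the enhancer trap against wild type, a contrast that the rule used, the change of AT3G43270 was 1.06, given as a description. This gene is among the members that did not pass the fit in that contrast, as listed below.

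The class III peroxidases are represented by 2 named members. Prx37 read 77.2 in wild type, 76.7 and 72.5 in the knockout arrays and 178 in the enhancer-trap array. AT5G58390 read 71.5 in wild type, 75.4 and 75.3 in the knockout arrays and 184 in the enhancer-trap array. In both genes the other 3 arrays lay within 0.09 on the log2 scale, and the margins were 1.19 and 1.28. Of 13 peroxidase genes that the gene table names as such, 6 were on the array by name and 4 passed the filter, a list drawn up after the members were known. Besides Prx37, AT2G41480 fell by 1.37 in the enhancer trap against wild type (SE 0.338, adjusted p = 0.0084 by the limma fit across all probe sets), from 56.2 to 21.1. The other 2, AT5G64120 at -0.32 and AT5G66390 at 0.48, did not pass, so the named peroxidases moved in both directions. AT4G26010, a peroxidase gene outside that list, read 253 in wild type, 300 and 393 in the knockout arrays and 501 in the enhancer-trap array.

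Among further genes of the wall and the space outside the cell, AT1G30760 encodes an enzyme of the berberine bridge family, flavin-dependent oxidases that can act on wall-derived molecules. It read 17.8 in wild type, 19.2 and 11.1 in the knockout arrays and 91.3 in the enhancer-trap array, with the second knockout array just above background. AT4G32460, a gene of the DUF642 family of wall proteins, read 235 in wild type, 241 and 239 in the knockout arrays and 498 in the enhancer-trap array. The 3 other arrays of AT4G32460 differed by 0.035 on the log2 scale, among the tightest of the named members.

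Secreted proteases also appear among the 9. The aspartyl protease gene AT4G33490 read 51.0 in wild type, 52.2 and 46.7 in the knockout arrays and 111 in the enhancer-trap array. AT4G30020, of the subtilase family of serine proteases, read 159 in wild type, 141 and 140.4 in the knockout arrays and 322 in the enhancer-trap array. With margins of 1.08 and 1.01, both stood close to the limit of the rule.

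In the lipid-related group, 6 named members had margins from 1.00 to 1.69, with a median of 1.09. AT1G75960, of the AMP-binding enzymes that activate organic acids as acyl thioesters, read 19.9 in wild type, 39.2 and 24.6 in the knockout arrays and 128 in the enhancer-trap array. Its 3 other arrays spread over 0.94 on the log2 scale, the widest range among the named members, and wild type was the lowest of them.

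Lipid-transfer-type proteins carry lipids in the apoplast or at membranes, and 2 members belong to this superfamily. AT1G48750 read 224 in wild type, 249 and 248 in the knockout arrays and 648 in the enhancer-trap array. AT4G33550 read 33.0 in wild type, 40.4 and 34.8 in the knockout arrays and 83.8 in the enhancer-trap array. The margins were 1.38 for AT1G48750 and 1.03 for AT4G33550.

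AT1G74460, a lipase gene of the GDSL class, read 291 in wild type, 274 and 345 in the knockout arrays and 692 in the enhancer-trap array. Its margin of 1.00 was the smallest of all members. AT5G22460, of the alpha/beta-hydrolase superfamily, read 24.5 in wild type, 19.9 and 36.3 in the knockout arrays and 79.3 in the enhancer-trap array. AT3G26460, of the polyketide cyclase and lipid transport superfamily, read 35.7 in wild type, 26.8 and 27.3 in the knockout arrays and 76.4 in the enhancer-trap array. For AT5G22460 the knockout arrays stood on either side of wild type, and for AT3G26460 both lay below it.

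Transport genes supplied 2 members. AT2G26690 encodes NPF6.2, a member of the nitrate and peptide transporter family, and read 278 in wild type, 212 and 251 in the knockout arrays and 841 in the enhancer-trap array. AT3G06450, of the bicarbonate transporter family that holds the boron transporters of plants, read 104 in wild type, 90.7 and 103 in the knockout arrays and 232 in the enhancer-trap array. Of 27 genes that the gene table names as nitrate and peptide transporters, 11 were on the array by name and 6 passed the filter. AT3G21670 of that family, which is no member, rose by 0.74 in the enhancer trap against wild type (SE 0.207, adjusted p = 0.0252 by limma), and the other 4 did not pass, with changes from AT1G59740 at -0.69 to AT1G68570 at 0.30.

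Other enzymes numbered 4, with margins from 1.08 to 1.22. GT72B1 glucosylates foreign and phenolic compounds, and is also called UGT72B1 in the gene table, although its symbol does not fall under the UGT symbols left out of the list. It read 252.5 in wild type, 225 and 188 in the knockout arrays and 542 in the enhancer-trap array. UGT72B3, its close relative and one of the probe sets set aside, read 21.3 in wild type, 18.6 and 13.7 in the knockout arrays and 58.7 in the enhancer-trap array, and UGT72E1, UGT72E2 and UGT72E3 did not pass in the enhancer trap against wild type, at -0.30, 0.24 and 0.15.

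AT2G35820, annotated in the family of ureidoglycolate hydrolases that release nitrogen from purine breakdown products, read 14.9 in wild type, 20.9 and 27.6 in the knockout arrays and 65.8 in the enhancer-trap array. AT3G60290, of the oxygenases that use 2-oxoglutarate and iron, read 22.1 in wild type, 17.6 and 27.2 in the knockout arrays and 59.6 in the enhancer-trap array. AT4G29700, of the alkaline-phosphatase-like family, read 58.2 in wild type, 61.4 and 58.7 in the knockout arrays and 131 in the enhancer-trap array. The other 3 arrays were close together for AT4G29700 and further apart for the dimmer genes AT2G35820 and AT3G60290.

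Genes of the nucleus, signalling and the cytoskeleton numbered 5. AT5G27220, annotated as Frigida-like after a regulator of flowering time, read 16.9 in wild type, 15.8 and 14.5 in the knockout arrays and 76.9 in the enhancer-trap array. AT3G12710, of the DNA glycosylases that remove damaged bases, read 124 in wild type, 102 and 99.3 in the knockout arrays and 394 in the enhancer-trap array. These had margins of 2.12 and 1.66, well inside the limit.

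AT4G22250, a gene of the RING and U-box type found in ubiquitin ligases, read 17.7 in wild type, 25.7 and 24.5 in the knockout arrays and 57.5 in the enhancer-trap array. AT3G25640, related to the root water-sensing gene MIZU-KUSSEI1, read 39.5 in wild type, 41.9 and 43.2 in the knockout arrays and 92.8 in the enhancer-trap array. SP1L2, a relative of the microtubule protein SPIRAL1 that keeps cell elongation straight, read 75.4 in wild type, 74.7 and 67.9 in the knockout arrays and 152 in the enhancer-trap array. Its relatives SPR1, SP1L3, SP1L4 and SP1L5 did not pass in the enhancer trap against wild type, at 0.30, -0.32, 0.35 and -0.34.

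No role is given here for the last 5 named members. AT5G57785 read 202 in wild type, 181 and 218 in the knockout arrays and 1104 in the enhancer-trap array, a margin of 2.33. P1R1 read 83.4 in wild type, 83.1 and 83.6 in the knockout arrays and 336 in the enhancer-trap array. The other 3 arrays of P1R1 lay within 0.0081 on the log2 scale, the closest of any member, against a margin of 1.99. AT1G36940, AT2G47200 and AT5G22580, the last with a stress-responsive A/B barrel domain, had margins of 1.21, 1.05 and 1.11. AT5G22580 read 364 in wild type, 446 and 442 in the knockout arrays and 963 in the enhancer-trap array.

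The 28 members without a single annotated gene spanned the same sizes. Those with no entry had margins from 1.00 to 2.53, with a median of 1.30, and those with several genes from 1.32 to 1.61. The unlisted probe set with the largest margin read 22.5 in wild type, 12.3 and 19.4 in the knockout arrays and 135 in the enhancer-trap array. Among all 59 members, 5 have a probe set type that can match several similar transcripts, 8.47% against 3.50% of all probe sets past the filter, so for these the source gene is uncertain.

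The rule also left close cases outside. The named members nearest the limit from inside were AT1G74460, SP1L2 and AT4G30020, and the nearest named probe sets outside it were DFR at 0.97, AT5G15780 at 0.95 and AT5G37990 at 0.95. DFR, an enzyme gene of anthocyanin synthesis, read 15.7 in wild type, 13.3 and 27.3 in the knockout arrays and 54.5 in the enhancer-trap array. Between 0.9 and 1 lay 22 further probe sets, about as many as the 21 between 1 and 1.1, so nothing separates the members from those just below the limit.

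The knockout arrays against wild type are the comparison that does not involve the enhancer-trap array. The rule bears on it too, since each of the other 3 arrays had to lie at least 1 below the enhancer-trap value. Probe sets with a high knockout or wild-type value were thus selected against. Within that limit, the comparison describes how far the members' levels differ between the other lines. Of the 59 members, 1 passed the test there (adjusted p under 0.05 by limma, over all 13648 probe sets), against 25 probe sets or 0.183% in all and 0.125% for those higher in the knockout. That member has no annotation entry. It read 9.61 in wild type, within background, and 32.3 and 29.9 in the knockout arrays (log2 difference 1.60, SE 0.309, adjusted p = 0.00936), so the knockout was at least 2.92-fold higher, taking background as the floor. In the enhancer-trap array the same probe set read 142, at least 13.3-fold above background. This single call was lost, leaving 0 members past the test, with a pseudocount of 16, median centring, no signal filter, a 60th percentile filter or no intensity trend in the fit (3 to 5 members at an unadjusted p under 0.05 by limma), and 1 member passed with quantile normalization.

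This member passed the signal filter through its enhancer-trap value alone. That holds for 11 of the 59 members, whose mean over the other 3 arrays lies below the cutoff of 4.58, among them AT1G30760, AT5G27220, AT2G35820, AT4G22250 and AT3G60290. Of the 48 members whose other 3 arrays reach the cutoff by themselves, 0 passed in the knockout against wild type by limma, with 5 at an unadjusted p under 0.05.

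By limma 0 of the named members passed between knockout and wild type, and 1 had an unadjusted p under 0.05, AT1G75960 at 0.62 (SE 0.304, adjusted p = 0.878). Over all members 6 had an unadjusted p under 0.05, 10.2% against 5.67% of all probe sets past the filter. The knockout minus wild type differences of the named members ranged from -0.39 for AT3G26460 to 0.66 for AT2G35820, with standard errors of 0.156 to 0.365. Over the 59 members the median difference was -0.024, and over all probe sets past the filter it was -0.013. Both knockout arrays lay above wild type for 20 members, both below for 25, and they lay on either side of it for 14. These are 33.9%, 42.4% and 23.7% of the members, against 30.8%, 34.8% and 34.4% of all probe sets past the filter. By role, the median difference was -0.046 for the 9 wall genes, 0.14 for the 6 lipid-related genes, -0.18 for the 2 transport genes, 0.014 for the 4 other enzymes, -0.081 for the 5 genes of the nucleus, signalling and the cytoskeleton and -0.00022 for the 5 with no role given. These medians are descriptions and were not tested.

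The members were also compared by how closely the knockout replicates agreed, a measure the rule did not fix beyond the ceiling it sets. The 2 knockout arrays differed by a median of 0.11 on the log2 scale over the members and of 0.17 over all probe sets past the filter. Of the 59 members 0 differed by 1 or more between them, which is near the share of all probe sets that did (83, 0.608%). The range over wild type and both knockout arrays had a median of 0.28 for the members and 0.28 for all probe sets.

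**Figure D2:**
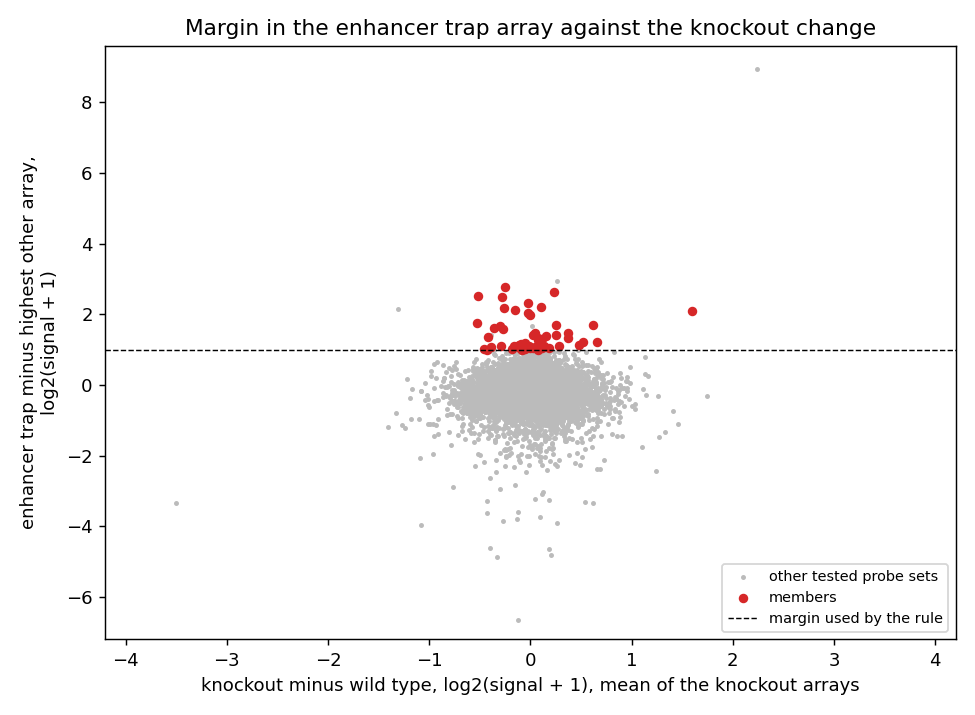
Margin in the enhancer-trap array (vertical axis, log2) against the mean knockout minus wild type difference (horizontal axis, log2) for the 13648 probe sets past the filter, with the 59 members in red and the limit of 1 as a dashed line. The members lie on both sides of 0 along the horizontal axis, with the 1 unlisted member at 1.60 apart from the rest, and the grey point at the top is CES.

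For the contrasts that the rule used, the fit's calls are given only as a description. In the enhancer trap against wild type 55 of the members passed, all higher, where 2.04% of all probe sets passed as higher. The 4 members that did not pass were AT3G26460 (adjusted p = 0.0669), AT3G43270 (adjusted p = 0.0508) and 2 probe sets that are not named. In the knockout against the enhancer trap all 59 passed as lower in the knockout, where 2.74% of all probe sets did. The spread behind both counts comes from the 2 knockout arrays alone, and the same spread is assumed for the lone arrays. Nothing in the labels tells whether the knockout arrays stem from separate cultures, so all p-values measure a spread between arrays that may be technical.

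The named members fell on all 5 nuclear chromosomes. Chromosome 4 held 9 of the 31, 29.0%, although the rule left out a long part of it, and it carried 11.1% of the 6755 tested genes that could have become members. Chromosome 1 held 6 (19.4% against 26.9% of these tested genes) and chromosome 2 held 3 (9.68% against 15.2%). Chromosome 3 held 6 (19.4% against 21.2%) and chromosome 5 held 7 (22.6% against 25.5%). No test was made of this spread. Gene order was taken from the gene table of assembly TAIR10.1, since the arrays carry no coordinates.

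P1R1 and AT5G57785 are neighbours on chromosome 5, with 0 annotated protein-coding genes between them, and are among the 6 named members with the largest margins. The nearest tested genes on either side, AT5G57760 at 0.66 (adjusted p = 0.326) and AT5G57815 at 0.02, did not pass in the enhancer trap against wild type by limma. On chromosome 4, AT4G33490, AT4G33550 and AT4G33720 lie in a run of 12 tested genes. Between AT4G33490 and AT4G33550 lie 6 protein-coding genes, 2 of them tested. Between AT4G33550 and AT4G33720 lie 19, 7 of them tested, so most genes between these members were not read here. Of the 9 others in this run 0 passed in the enhancer trap against wild type by limma, with 1 at an unadjusted p under 0.05, and their changes ranged from -0.58 to 0.48. AT4G33730, the CAP-family gene next to AT4G33720, read 22.1 in wild type, 21.6 and 30.1 in the knockout arrays and 33.8 in the enhancer-trap array. Its change of 0.59 did not pass (adjusted p = 0.631 by limma).

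**Figure D3:**
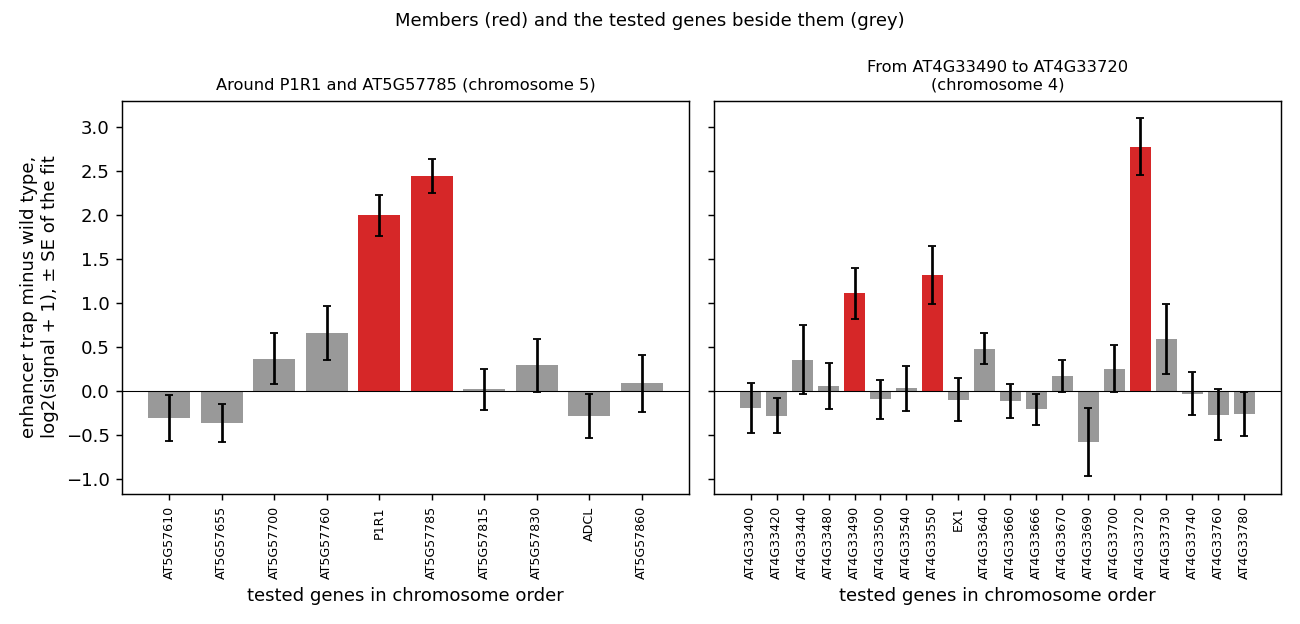
Change in the enhancer trap against wild type (log2, with the standard error of the limma fit) of members (red) and of the tested genes beside them (grey), in chromosome order. P1R1 and AT5G57785 form 1 adjacent pair at 2.00 and 2.44. The tested genes between the members on chromosome 4 did not pass, and the untested genes between them are not drawn.

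Within 3 protein-coding genes of any named member lay 51 tested genes that are not members. Of these 3 passed in the enhancer trap against wild type by limma, all higher, 5.88% against 2.04% of all probe sets as higher and 4.29% in either direction, and their median change was 0.03. Next to the member AT5G62360, the pectin methylesterase inhibitor-like gene AT5G62350 rose by 0.83 (SE 0.182, adjusted p = 0.00238), from 1787 to 3178, with 2001 and 1709 in the knockout arrays. Next to AT3G26460, its relative AT3G26450 rose by 0.79 (SE 0.218, adjusted p = 0.0218), from 140 to 243. Near AT1G74460, AT1G74450 rose by 0.94 (SE 0.218, adjusted p = 0.00441), from 140 to 269, but the second knockout array was almost as high, at 258. The enhancer trap stood above all other arrays for each of these genes, by less than the limit of the rule.

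Lists of genes for pathways and cell types, 14 in all, were set beside the members. They hold 173 genes, of which 22 could be found on the array by name, 14 passed the filter and 0 are members. Members made up 0.432% of all probe sets past the filter, so 0 of 14 is near that share. EXPA7, EXPA18 and XTH26 of the root hair list could not become members, since the rule left out symbols starting EXP or XTH. Of the root hair list, 3 of 16 genes were tested, and 2 rose in the enhancer trap against wild type: EXPA7, a root hair expansin, by 1.31 (SE 0.284, adjusted p = 0.00191), and the peroxidase gene AT4G26010 by 0.98 (SE 0.196, adjusted p = 0.000682). EXPA18, also tested, did not pass, at 0.48. The summed signal of the 4 root hair genes on the array was 366 in wild type, 434 and 562 in the knockout arrays and 704 in the enhancer-trap array. XTH26 was within background on all arrays. Both knockout arrays thus also lay above wild type for the sum of these genes, most of which came from AT4G26010 (253 in wild type). A part of these tissue markers in the members' levels was not tested, and in whole seedlings more cells of a type and more RNA per cell cannot be told apart.

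In the cold and abscisic acid list, 2 of 14 genes were tested. LTI30, a dehydrin gene induced by cold, rose from 396 to 911 (SE of the log2 change 0.183, adjusted p = 8.96e-06 by limma), with 482 and 417 in the knockout arrays, and so came close to membership with a margin of 0.92. COR47, another dehydrin gene, was at 0.57 (adjusted p = 0.0553). DFR rose by 1.74 (adjusted p = 0.0104) and PDF1.2, a defensin gene of the jasmonate list, fell by 1.77 (adjusted p = 0.000188). The tested members of the other lists did not pass: BIM1 of the brassinosteroid list at 0.64, SAG101 of the salicylic acid list at 0.53, BCAT4 of the glucosinolate list at -0.47, FMA of the stomatal list at -0.41, and LHCB4.1, LHCB4.2 and RCA of the photosynthesis list at -0.23, -0.24 and -0.25. Between knockout and wild type 0 of the 14 tested list genes passed by limma, with 2 at an unadjusted p under 0.05, both of the root hair list. The vascular, flower, seed storage, senescence, and phosphate and iron lists had 0 tested genes.

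As a check on the arrays, median signals lay between 38.5 and 39.6. The ratio of 3' to 5' signal, which rises as RNA degrades, was 1.06 for GAPDH in the enhancer-trap array and 0.897 to 0.963 in the others by one pair of probe sets, but 1.38 against 1.70 to 2.01 by the other pair. For actin it was 2.55 in the enhancer-trap array, inside the 2.04 to 3.12 of the others. Their part in the members' levels was not tested. Since the enhancer trap has 1 array, what belongs to the line and what belongs to that array cannot be told apart.

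**Figure D4:**
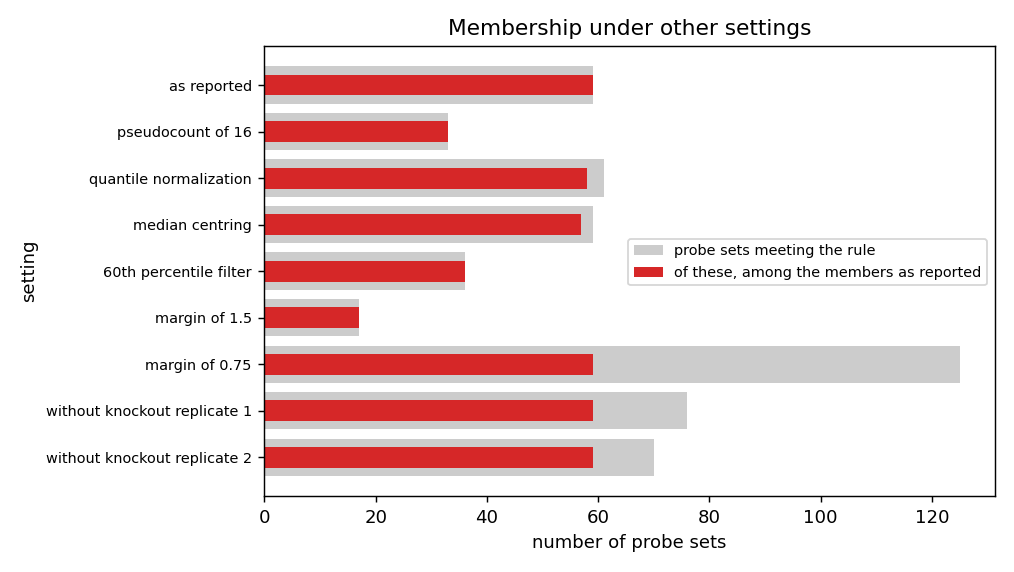
Number of probe sets meeting the rule (grey bars) and the number of these among the 59 members (red bars) under other settings. With quantile normalization 61 met the rule and 58 of them were members, and with a pseudocount of 16 the count was 33. The setting with no filter, at 324 probe sets, is not drawn.

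The number of members depended on the signal filter, the limit and the scale more than on the scaling between arrays. With no filter the rule gave 324 probe sets and at the 60th percentile filter 36. At a limit of 0.75 the rule gave 125 probe sets and at 1.5 it gave 17. With a pseudocount of 16, which shrinks differences of dim probe sets, 33 remained, all of them members, and 16 of the 31 named members kept a margin of at least 1. Of the 31 named members, 30 kept it with quantile normalization, 29 with median centring and 16 under all 3 of these settings.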

How the data were processed

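Whole-seedling RNA was measured on 4 ATH1 arrays, grouped by the sample labels. The deposited values are linear intensities. The submitters' processing notes name MAS5 and GCOS as the authors' software, with versions not given in the sources used here. The arrays had been scaled already, to a trimmed mean (2% off each end) of 100.0. The number of arrays limits the precision.

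Signals were taken as log2(signal + 1), which understates changes of dim genes. Probe sets were kept at or above the 40th percentile of the mean over 4 arrays (4.58), in R 4.3.3. The words passed, rose and fell stand for an adjusted p under 0.05 by limma 3.58.1 (lmFit and eBayes with an intensity trend, 1 model with 3 group means, two-sided, Benjamini-Hochberg over 13648 probe sets). Residual degrees of freedom numbered 1 (the knockout pair) and prior ones 41.8. The fit was also run on simulated data drawn with a spread set by intensity alone and equal on every array. That run cannot check this assumption. Differences on the log2 scale are of log2(signal + 1).

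Names come from the platform annotation. Of 13513 probe sets with 1 gene, 13484 matched the TAIR10.1 gene table, and 6086 of the probe sets tested are not listed, so many genes of the families and lists go unnamed. Only probe sets with 1 gene are named, by a rule: the 25 members with the largest margin, up to 6 per role, the 5 with the highest enhancer-trap signal, those past the test between knockout and wild type, 3 on each side of the limit, and up to 4 genes per list. AT3G43270 and AT4G32460 fall outside it and were named after their values were seen. The peroxidase, transporter, glucosyltransferase and SPIRAL1 relatives and the genes next to members were chosen after their values were seen. The same holds for boron transporters and lipid transfer proteins, which had 0 genes named on the array. The members, lists and tests were chosen with earlier results of these data known. The lists were root hair, vascular and secondary wall, stomatal lineage, flower, seed storage, senescence, photosynthesis, flavonoid and anthocyanin, salicylic acid, jasmonate, brassinosteroid, cold and abscisic acid, phosphate and iron, and glucosinolate. Planned searches of promoters were not run, as no sequence was used here.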

Additional observations from a re-analysis of the deposited data

How the results depend on the processing

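Of 40 alternative values, 16 stayed within 1.5 times the reported count or median. The rule gave 33 probe sets with a pseudocount of 16, 36 at the 60th percentile filter, 324 with no filter, 17 at a limit of 1.5 and 125 at 0.75; leaving out each knockout array in turn gave 70 to 76. Probe sets past the test in the knockout against wild type, 25 as reported, numbered 2 with median centring, 0 with no filter (1211 at an unadjusted p under 0.05 by limma) and 2 with no intensity trend. For the enhancer trap against wild type, 586 as reported, the counts were 316, 153 and 205. For the knockout against the enhancer trap, 817 as reported, they were 511, 231 and 335. The prior degrees of freedom were 10.7, 6.58 and 7.63 in these 3 settings, against 41.8. The share called higher moved from 47.4% to 27.5% with no filter and 30.2% with no trend for the enhancer trap against wild type, from 54.2% to 70.6% with no filter for the knockout against the enhancer trap, and from 68.0% to 50.0% of 2 calls with median centring for the knockout against wild type. The 1 member past the test there became 0 by limma with a pseudocount of 16, median centring, no filter, the 60th percentile filter (36 members tested) and no trend, with 3 to 5 members at an unadjusted p under 0.05. The members' median knockout difference, -0.024 as reported, was -0.015 with quantile normalization, 0.0083 with median centring and -0.048 at the 60th percentile filter, and -0.013 to -0.0028 with 1 knockout array left out, so its sign is not settled; the cause of these shifts was not tested. The counts of calls could not be fitted with 1 knockout array left out, since no residual degree of freedom is then left. No paired analysis was possible because the groups compared share fewer than 2 replicate numbers. Arrays without replicates limit the members to a description of 1 array.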

Other observations

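The signal filter also left out dim genes that were read in the enhancer-trap array and hardly elsewhere. Below it lie 9098 probe sets, of which 265 met the limit of 1, most of them at levels where MAS5 signals have little meaning. In 28 the enhancer-trap signal was at least 2-fold above both background (10.6) and every other array, and 14 of these have 1 annotated gene. In 12 of the 14 every other array was within background. AT1G53080, of the legume lectin family of sugar-binding proteins, read 90.6 in the enhancer-trap array, at least 8.53-fold above background, and 1.89 in wild type and 6.76 and 1.47 in the knockout arrays. AT1G14930, of the same polyketide cyclase superfamily as the member AT3G26460, read 54.4, at least 5.12-fold above background, with all other arrays under 2.

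Further genes of this kind were AT1G48800, of the terpene synthases, at 47.4, AT1G58025 at 46.5, AT2G29170 at 43.4 and AT1G75300, an isoflavone reductase-like gene, at 29.7 in the enhancer-trap array. LPR1, a ferroxidase of the root response to low phosphate, stood above background in wild type and 1 knockout array. It read 15.2 in wild type, 8.51 and 14.8 in the knockout arrays and 39.7 in the enhancer-trap array. They were picked with their values in view and read on 1 array, and no test was made of them.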
